A study of Homo sapiens with 9 samples.

Results

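The genes described here are 34 genes of mitosis and the spindle, taken by name from a count table of 59653 gene symbols: cyclins and CDK1, mitotic kinases, spindle checkpoint and kinetochore genes, the chromosomal passenger complex, kinesin motors, the anaphase trigger, and genes of the midzone, cytokinesis and chromosome structure. All 34 were found in the table, and 33 had enough reads to be tested. The names were chosen for function, with earlier results of these data known, but no measured value entered the choice of an individual gene.

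Entry into mitosis is driven by cyclin B bound to the kinase CDK1, which the phosphatase CDC25C activates. The spindle checkpoint then holds anaphase back until every kinetochore is attached to microtubules, after which the anaphase-promoting complex with CDC20 marks securin and cyclin B for destruction, separase opens cohesin and the midzone guides cytokinesis. Most of these genes peak in G2 and mitosis. The DREAM complex holds them down earlier in the cycle, and its MuvB core, which reads the CHR element in their promoters, later turns them on with B-MYB and FOXM1 beside NF-Y at CCAAT boxes.

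The cells were K-562, a human leukaemia line that grows in suspension and expresses erythroid genes, carrying a B2M tdTomato genotype in all 3 groups, tdTomato being a red fluorescent protein. One group was mock-treated. The others received, by nucleofection, a gRNA for the promoter of B2M, the light chain of MHC class I, and the mRNA of a tripartite ETR, which is a fusion on nuclease-dead Cas9 (dCas9). The gRNA was either full length or cut to 16 nt, and each of the 3 groups had 3 libraries. What the mock cells were given, the time from nucleofection to harvest and any sorting are not stated in the labels, nor whether the line is 1 clone. Since no label says that the replicates come from separate cultures, the spread behind each p-value is that of these 9 libraries and may be technical. In bulk RNA, fewer dividing cells and less mitotic RNA per cell cannot be told apart.

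Total counts ran from 23763529 to 33260228 per library, and the 34 genes took 0.332% to 0.392% of them. B2M, the targeted gene, stood at 147, 135 and 135 CPM (counts scaled by library size) in mock cells, at 10.8, 9.21 and 9.09 in full-length libraries and at 19, 22.3 and 16.4 in 16-nt libraries, so no group overlapped another (exact two-sided permutation test, p = 0.10 for each pair, the smallest that 3 against 3 allows). All 10 erythroid markers were expressed, with a summed level of 1632 to 2162 CPM over all libraries, while 10 lymphocyte markers summed to between 2.4 and 4.24 CPM with MS4A1 at 0, although the labels call the cells lymphoblasts. Markers of monocytes and granulocytes summed to 0.4 to 1.52 CPM and those of fibroblasts and endothelium to 2.68 to 4.19 CPM. Replicate 3 of the full-length group stood apart: it held the lowest of the 9 values for 25 of the 33 tested mitosis genes. It also had the lowest total count and the highest share of the noncoding RNA RN7SL1, 6.66%. The share was 5.95% in 16-nt replicate 3 and 3.36% to 5.56% in the others. Whether this bears on the mitosis genes was not tested. Because of the low mitosis values, some results are also given without the replicate 3 libraries of both gRNA groups. These are the counts of signs by role, and each mitosis gene's estimate against mock that changed sign or moved by over 1.5 times.

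RefSeq promoter windows (GRCh38.p14, 250 bases before the start and 50 after) were found for 28 of the 34 genes, and these genes shared promoter letters that the choice of genes did not use. The CHR letters TTTGAA or TTCGAA, read on both strands, stood in 20 of the 28 windows (71.4%) against 16.6% of all 27305 promoter windows of that length. CCAAT, on both strands, stood in 22 (78.6%) against 35.7%, and both together in 17 (60.7%) against 6.58%. Among 23 promoters of G1/S and replication genes, which peak earlier in the cycle, CHR letters stood in 8.7% and CCAAT in 60.9%. Within the 250 bases before the start alone, 15 of the 28 (53.6%) held CHR letters and 22 (78.6%) held CCAAT. The shares there were 14.6% and 33% of all promoters, and 9.43% and 35.4% of the promoters of tested genes. No entry was used for AURKA, TPX2, BUB3, TTK, BIRC5 and UBE2C. A match describes letters only and says nothing of binding.

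The promoters of 5 genes are shown, and no link between their letters and expression was tested. KIF11 and ESPL1, at opposite ends of the full-length fold changes described below, both hold CHR and CCAAT letters. Neither fold change passed the test. CDC20 holds both as well, and TOP2A holds CCAAT alone in this stretch. CDC25C, whose gRNA groups did not overlap, holds neither in the stretch shown. Other starts of these genes were not searched, so letters at another start would be missed. Each stretch is the 130 bases before the start, 5′ to 3′ on the gene's strand, with CHR letters (TTTGAA, or TTCAAA on the other strand) and CCAAT letters (CCAAT, or ATTGG on the other strand) in capitals.
KIF11 (chr10:92593000-92593129, plus strand): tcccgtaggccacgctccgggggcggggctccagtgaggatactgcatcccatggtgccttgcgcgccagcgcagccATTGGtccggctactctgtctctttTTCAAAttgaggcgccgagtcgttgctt
ESPL1 (chr12:53268169-53268298, plus strand): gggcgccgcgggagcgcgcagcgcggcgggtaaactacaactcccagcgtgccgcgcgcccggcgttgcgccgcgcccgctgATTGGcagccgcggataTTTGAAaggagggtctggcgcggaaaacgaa
CDC20 (chr1:43358851-43358980, plus strand): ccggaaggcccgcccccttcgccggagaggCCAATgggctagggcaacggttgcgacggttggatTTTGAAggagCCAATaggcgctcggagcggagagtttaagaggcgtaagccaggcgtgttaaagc
TOP2A (chr17:40417897-40418026, minus strand): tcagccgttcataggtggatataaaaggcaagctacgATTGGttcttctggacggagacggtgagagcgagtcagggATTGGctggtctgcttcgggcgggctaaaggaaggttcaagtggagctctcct
CDC25C (chr5:138338356-138338485, minus strand): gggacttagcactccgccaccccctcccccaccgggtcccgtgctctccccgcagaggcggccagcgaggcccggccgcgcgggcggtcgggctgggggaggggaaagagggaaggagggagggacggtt
Counting the base before the start as -1, the CHR letters began at -28 in KIF11, -31 in ESPL1 and -65 in CDC20. The CCAAT letters began at -53 in KIF11, -48 in ESPL1, -100 and -55 in CDC20, and -93 and -53 in TOP2A. The order CCAAT upstream of CHR was thus the same in KIF11 and ESPL1, and in CDC20 the second CCAAT box followed the CHR letters.

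In mock cells most of the mitosis genes were well expressed. Divided by exon length, 12 of the 34 stood in the top 10% of tested genes and 23 in the top 25%, where the median tested gene had 3.78 CPM per kilobase. TPX2, the factor that activates aurora A and builds spindle microtubules, led with 101 ± 4.86 CPM per kilobase (SD, n = 3), followed by CDC20 at 73.7 ± 6.63, the passenger kinase AURKB at 64.8 ± 4.47, the microtubule depolymerase KIF2C at 59.7 ± 0.638 and CCNB1 at 53.5 ± 1.55. At the low end stood separase ESPL1 at 3.28 ± 0.221, the kinetochore motor CENPE at 3.23 ± 0.188 and the midzone bundler PRC1 at 2.54 ± 0.231. The order is loose, since 21 of the 33 neighbouring pairs overlapped over their 3 libraries, including CDC20 with AURKB and each neighbouring pair from CCNB1 to TOP2A. Length mattered most for MKI67, a gene with a long transcript at rank 3 by CPM and rank 18 per kilobase.

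UBE2C, which encodes the ubiquitin-conjugating enzyme that starts chains for the anaphase-promoting complex and is usually abundant in dividing cells, had few counts in the deposited table. It was assigned 6, 12 and 7 counts in mock cells, 4, 7 and 9 in full-length libraries and 9, 13 and 9 in 16-nt libraries, or 76 counts in all. These counts fell under the minimum for testing, and at 0.226 ± 0.0578 CPM per kilobase in mock cells UBE2C stood at percentile 10.1 of the tested genes. No exon of another gene in the table overlaps it. How reads that map to more than 1 place were counted is not given in the sources used here, so these counts are not read as the expression level of UBE2C. PRC1 needs caution for another reason, because 61.9% of its exon bases lie within exons of other genes, mostly AC068831.6 on the same strand.

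**Figure D1:**
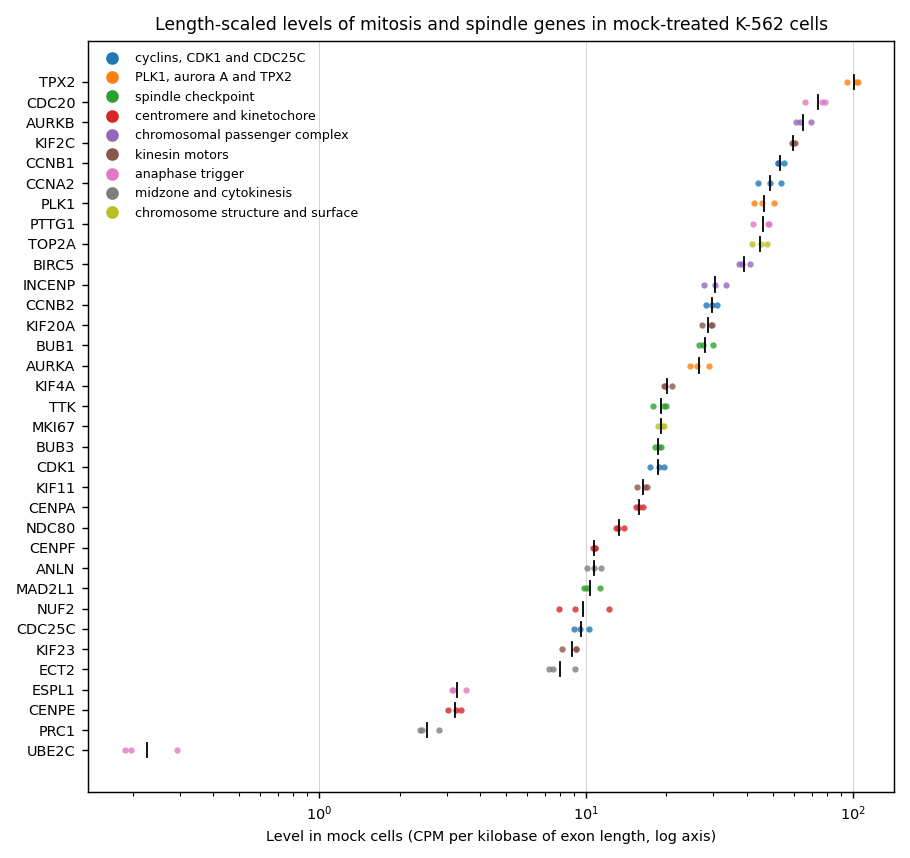
Level of each of the 34 mitosis and spindle genes in mock-treated cells, in CPM per kilobase of exon length on a log axis, with a point per library (n = 3), a bar at the mean and colour by role. TPX2 stands highest at 101 and UBE2C lowest at 0.226, a value that is not read as its expression level, with most neighbouring genes overlapping.

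No mitosis gene passed the test in any comparison. With the full-length gRNA against mock, edgeR's quasi-likelihood test with Benjamini-Hochberg adjustment called 0 of the 33, beside 0.00657% of all 15213 tested genes, which is B2M alone. The 16-nt gRNA against mock also gave 0 of 33 beside 0.00657%, as did the 16-nt against the full-length gRNA (0.00657%) and both gRNAs together against mock (0.00657%). At an unadjusted p under 0.05 the counts were 0, 0, 0 and 1 in that order, the 1 being ESPL1 with both gRNAs, beside 2.86%, 2.48%, 0.927% and 4.29% of all tested genes. DESeq2 also called 0 in each, with 0, 0, 0 and 1 at an unadjusted p under 0.05. The comparisons with mock share the same 3 mock libraries and are not independent of each other.

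The estimates were small and well bounded. Log2 fold changes with the full-length gRNA against mock ran from -0.19 (KIF11) to 0.19 (ESPL1) with a median of -0.04, and those with the 16-nt gRNA from -0.16 (TTK) to 0.19 (ESPL1) with a median of -0.03. Between the gRNAs they ran from -0.13 (CDC20) to 0.13 (NDC80) with a median of 0.00. The median over all tested genes was 0.00 in each. In every one of these comparisons the 95% interval of each of the 33 genes lay within 1.5-fold either way, as it did for 70.5%, 70.4% and 72.3% of all tested genes. The intervals of 23, 25 and 26 of the 33 lay within 1.25-fold, against 41%, 41.5% and 46.9% of all tested genes. The mitosis genes are more abundant than most tested genes, and the median standard error of the log2 fold change was 0.10 for them against 0.12 over all. These intervals bound the difference in each gene and do not show that the levels were equal.

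**Figure D2:**
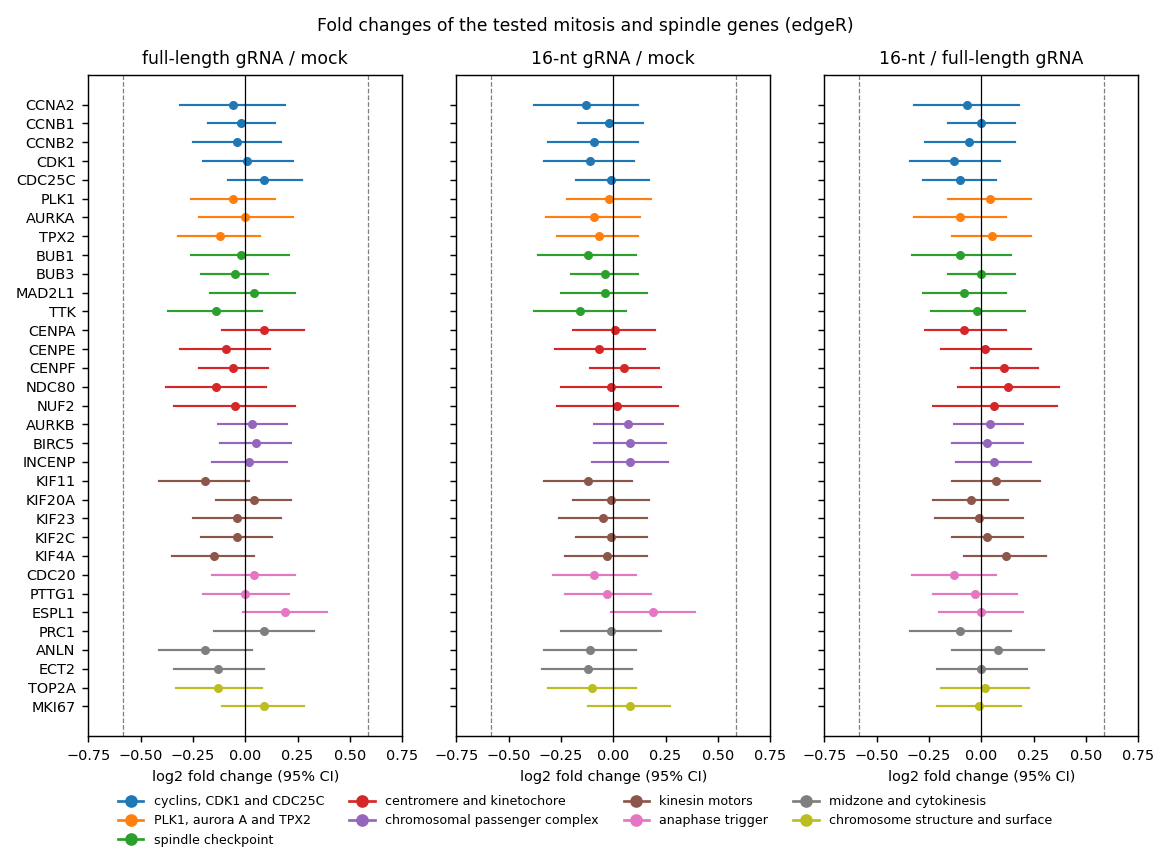
Log2 fold change of the 33 tested mitosis and spindle genes in each comparison, with 95% intervals from edgeR, colour by role and dashed lines at 1.5-fold. Every interval lies inside the dashed lines, and the estimates run from -0.19 for KIF11 to 0.19 for ESPL1.

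The signs leaned to the lower side but depended on which libraries were kept. With the full-length gRNA 14 of the 33 were above 0 and 19 below, against 50.1% and 49.9% of all tested genes, and with the 16-nt gRNA 8 were above and 25 below, against 50.6% and 49.4%. Without the replicate 3 libraries of both gRNA groups, where all 34 could be tested, 20 were above and 14 below with the full-length gRNA (median 0.02) and 14 above and 20 below with the 16-nt gRNA (median -0.02). That omission was chosen on low values of these same genes. Other omissions kept more genes below 0. The full-length split was 8 and 25 (median -0.07) without full-length replicate 1, and 10 and 24 without mock replicate 3. The 16-nt split was 9 and 25 (median -0.08) without 16-nt replicate 1. With an offset for transcript GC content, an alternative chosen after the data were seen, the split was 22 above and 11 below for the full-length gRNA and 18 above and 15 below for the 16-nt gRNA. Between the gRNAs 17 were above 0 and 16 below with all libraries, against 51.6% and 48.4% of all tested genes, and 13 above and 21 below without replicate 3.

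Complete separation of the groups was rare. KIF4A was the 1 gene of the 33 whose full-length libraries all lay below all mock libraries, beside 3.52% of all tested genes, and 0 lay above (3.39%). With the 16-nt gRNA against mock 0 of 33 separated in either direction, beside 4.41% higher and 4.8% lower. Between the gRNAs CDC25C alone lay lower in all 16-nt libraries (2.78%) and 0 lay higher (2.8%). Both shares are near those of all genes.

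Among the cyclins, their kinase CDK1 and CDC25C, all 5 genes were lower on average with the 16-nt gRNA and 3 of 5 with the full-length gRNA, with none past the test (by library totals without TMM scaling, 4 of 5 with the 16-nt gRNA). Leaving out the replicate 3 libraries, all 5 were above 0 with the full-length gRNA, with a median of 0.08, and all 5 stayed below with the 16-nt gRNA. With the GC offset the 16-nt estimates of CCNB1 (0.04) and CDC25C (0.03) were above 0, and those of CCNA2, CCNB2 and CDK1 stayed below. CCNA2, the cyclin of S phase and early mitosis, stood at 148, 135 and 121 CPM in mock cells, 148, 133 and 107 in full-length libraries and 138, 118 and 113 in 16-nt libraries. The lowest of the 9 was replicate 3 of the full-length group, and the groups overlapped. The log2 fold change of CCNA2 against mock was -0.06 with the full-length gRNA and became 0.06 without the replicate 3 libraries, while that for the 16-nt gRNA went from -0.13 to -0.07. CDK1 stood at 76.8, 68.3 and 74 CPM in mock cells, 78.8, 80.3 and 62 in full-length libraries and 73.2, 66.8 and 62.7 in 16-nt libraries. Its full-length group thus held both the highest and the lowest of the 9 values, giving a log2 fold change of 0.01 ± 0.10 (SE) with all libraries and 0.12 without the replicate 3 libraries. With the 16-nt gRNA CDK1 went from -0.11 to -0.06. CCNB2 had the same shape, with 81.2, 77.7 and 85.2 CPM in mock cells, 89.4, 82.4 and 65.7 in full-length libraries and 79, 76.2 and 73.5 in 16-nt libraries, and its full-length estimate turned from -0.04 to 0.08.

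CCNB1, the main mitotic partner of CDK1, was the steadiest gene of the set. It stood at 128, 128 and 134 CPM in mock cells, 127, 136 and 123 in full-length libraries and 127, 128 and 131 in 16-nt libraries, a coefficient of variation of 3.11% over the 9 libraries. Its log2 fold changes were -0.02 ± 0.07 against mock with each gRNA, and 0.01 and -0.03 without the replicate 3 libraries. CDC25C, the phosphatase that removes the inhibitory phosphates from CDK1, stood at 34.2, 31.7 and 30 CPM in mock cells, 35.2, 34.1 and 33.1 in full-length libraries and 32.1, 30.7 and 32.5 in 16-nt libraries. The lowest full-length library thus lay just above the highest 16-nt library, with a log2 difference of -0.10 ± 0.08 (edgeR's quasi-likelihood test, Benjamini-Hochberg adjusted p = 1). Against mock the 16-nt estimate of CDC25C was -0.01, or -0.02 without the replicate 3 libraries.

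PLK1, aurora A and TPX2 drive centrosome maturation and spindle assembly, and all 3 had estimates below 0 with the 16-nt gRNA, or 2 of 3 without the replicate 3 libraries, where PLK1 turned from -0.02 to 0.02. With the full-length gRNA 2 of 3 were below 0 either way. TPX2 stood at 375, 370 and 343 CPM in mock cells, 352, 345 and 302 in full-length libraries and 378, 327 and 329 in 16-nt libraries. Only full-length replicate 3 stands clearly low, and the log2 fold change of -0.12 ± 0.09 with the full-length gRNA became -0.06 without the replicate 3 libraries. AURKA stood at 84.8, 75.9 and 71.7 CPM in mock cells, 85.4, 83.3 and 64.2 in full-length libraries and 73.4, 76.1 and 68.1 in 16-nt libraries. PLK1, the polo-like kinase, ran between 200 and 241 CPM over the 9 libraries, with both ends of its mock group, 203 and 241, near the ends of that range. The log2 fold changes with the full-length gRNA were 0.00 ± 0.10 for AURKA and -0.06 ± 0.09 for PLK1, and became 0.12 and -0.02 without the replicate 3 libraries. With the 16-nt gRNA AURKA went from -0.09 to -0.05 and TPX2 from -0.07 to -0.04.

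The spindle checkpoint genes BUB1, BUB3, MAD2L1 and TTK, which produce the wait-anaphase signal at unattached kinetochores, were all below 0 with the 16-nt gRNA and 3 of 4 with the full-length gRNA. Leaving out the replicate 3 libraries, 2 of 4 were below 0 with the full-length gRNA, TTK at -0.02 and BUB3 at -0.01 in place of -0.05. With the 16-nt gRNA 4 of 4 were below 0 there. With the GC offset the 16-nt estimates of BUB3 (0.03) and MAD2L1 (0.04) were above 0, and those of BUB1 and TTK stayed below. TTK, the kinase that starts the signal, stood at 91, 81.7 and 90 CPM in mock cells, 90.2, 82.3 and 65.2 in full-length libraries and 77.2, 83.4 and 74.5 in 16-nt libraries. Mock and 16-nt libraries overlapped by 1 value, and the log2 fold change of -0.16 ± 0.10 was the lowest of the 16-nt comparison (edgeR's quasi-likelihood test, adjusted p = 0.978). With the full-length gRNA the estimate for TTK was -0.14 ± 0.10 with all libraries and -0.02 without replicate 3, and with the 16-nt gRNA it became -0.13. BUB1, a kinase and scaffold of the outer kinetochore, stood at 188, 167 and 173 CPM in mock cells, 187, 193 and 139 in full-length libraries and 163, 171 and 152 in 16-nt libraries. The full-length group of BUB1 again held the highest and the lowest value of all 9, and the estimate turned from -0.02 to 0.11 without the replicate 3 libraries, while for the 16-nt gRNA it went from -0.12 to -0.08. BUB3, the adaptor that carries BUB1 to kinetochores, ran only from 140 to 156 CPM, and MAD2L1, the checkpoint effector that binds CDC20, from 51.6 to 65.4 CPM. The full-length estimate of MAD2L1 went from 0.04 to 0.12.

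Centromere and kinetochore genes did not share a direction: 1 of 5 was above 0 with the full-length gRNA and 3 of 5 with the 16-nt gRNA (4 of 5 by library totals without TMM scaling). Both counts were the same without the replicate 3 libraries. NDC80, the microtubule-binding subunit of the outer kinetochore, stood at 45.8, 46.6 and 49.4 CPM in mock cells, 45.8, 47.4 and 35.5 in full-length libraries and 49.8, 51 and 40.2 in 16-nt libraries. Within each gRNA group replicate 3 was far below the other 2, and NDC80 had the lowest deviation of any of these genes in full-length replicate 3. Its log2 fold change with the full-length gRNA moved from -0.14 ± 0.11 to -0.02 without the replicate 3 libraries, and with the 16-nt gRNA from -0.01 ± 0.11 to 0.09.

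NUF2, the partner of NDC80 in the same complex, followed another pattern. It stood at 26.6, 30.6 and 41.1 CPM in mock cells, 32.6, 31.3 and 31.3 in full-length libraries and 28.2, 36.8 and 34.3 in 16-nt libraries. The mock group alone held the lowest and the highest value, and NUF2 varied more than any other tested mitosis gene, with a coefficient of variation of 13.6% and the largest standard error, 0.14. Its 16-nt estimate, 0.02, became -0.01 without the replicate 3 libraries. CENPF, a large kinetochore and nuclear matrix protein, was the opposite in mock cells at 126, 126 and 124 CPM, with 123, 125 and 113 in full-length libraries and 132, 137 and 121 in 16-nt libraries. CENPA, the histone H3 variant that marks the centromere, had a log2 fold change of 0.09 ± 0.09 with the full-length gRNA, against 0.01 ± 0.09 with the 16-nt gRNA, and CENPE -0.09 ± 0.10 and -0.07 ± 0.10. Without the replicate 3 libraries the full-length estimates were 0.15 for CENPA, -0.01 for CENPE and -0.02 for CENPF, whose value with all libraries was -0.06, and the 16-nt estimate of CENPF went from 0.05 to 0.10 and that of CENPA from 0.01 to 0.02.

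The chromosomal passenger complex, which corrects faulty attachments and later sits at the midzone, was the 1 role group with every estimate above 0 in each comparison, and none passed the test. Its kinase AURKB stood at 137, 156 and 142 CPM in mock cells, 143, 151 and 151 in full-length libraries and 156, 150 and 152 in 16-nt libraries. The scaffold INCENP stood at 135, 148 and 123 CPM, then 136, 140 and 136, then 153, 140 and 138 in the same order. Survivin, BIRC5, stood at 147, 156 and 143 CPM, then 152, 149 and 161, then 165, 145 and 161. For all 3 genes mock replicate 2 lay above several gRNA libraries, so the groups overlapped, and the log2 fold changes were 0.02 to 0.05 with the full-length gRNA, against 0.07 to 0.08 with the 16-nt gRNA. All 3 estimates were also above 0 without the replicate 3 libraries, with medians of 0.02 and 0.08, BIRC5 going from 0.05 to 0.02 with the full-length gRNA. With the GC offset INCENP moved to -0.02 with the full-length gRNA. CDCA8, a further subunit counted below among the partners, did not share this direction. It had mean CPM (± SD) of 97 ± 4.66 in mock cells, 92.7 ± 9.26 in full-length libraries and 96.8 ± 6.51 in 16-nt libraries.

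Of the 5 kinesin motors, 4 were below 0 with the full-length gRNA and all 5 with the 16-nt gRNA. Leaving out the replicate 3 libraries, 2 of 5 were below 0 with each gRNA, and the medians went from -0.04 to 0.02 and from -0.03 to 0.00. KIF11, the motor that pushes the spindle poles apart, stood at 85, 83 and 78 CPM in mock cells, 81.5, 71.1 and 62.5 in full-length libraries and 82.1, 76 and 67.9 in 16-nt libraries. One library of each gRNA group lay among the mock values and the others below them. Its log2 fold change was -0.19 ± 0.10 with the full-length gRNA (edgeR's quasi-likelihood test, adjusted p = 0.992) and -0.12 ± 0.10 with the 16-nt gRNA (adjusted p = 0.978, edgeR). Without the replicate 3 libraries these became -0.11 and -0.05.

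KIF4A, a chromosome-bound motor that also shapes the midzone, stood at 89.9, 95.6 and 89.6 CPM in mock cells, 89.2, 81.1 and 77.6 in full-length libraries and 101, 86.9 and 80.7 in 16-nt libraries. The first full-length library lay just under the lowest mock library, while the first 16-nt library was the highest of all 9. The log2 fold change of KIF4A with the full-length gRNA was -0.15 ± 0.09 (adjusted p = 0.992, edgeR's quasi-likelihood test), or -0.11 without the replicate 3 libraries, where the 16-nt estimate turned from -0.03 to 0.04. The other motors had smaller estimates: KIF20A ran from 102 to 121 CPM, KIF23 from 48 to 62.3 CPM and KIF2C from 194 to 226 CPM, each with its lowest value in full-length replicate 3. Their full-length estimates were 0.04 for KIF20A, -0.04 for KIF23 and -0.04 for KIF2C with all libraries, against 0.11, 0.06 and 0.02 without the replicate 3 libraries. Their 16-nt estimates were -0.01, -0.05 and -0.01, against 0.00, -0.00 and 0.02.

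At the metaphase to anaphase step the 3 tested genes were all at or above 0 with the full-length gRNA, with and without the replicate 3 libraries (medians 0.04 and 0.13). With the 16-nt gRNA 1 of 3 was above 0, or 2 of 3 without those libraries, and in the comparison between the gRNAs all 3 were at or below 0 either way. ESPL1, the separase that cleaves cohesin, stood at 31.4, 27.9 and 28.1 CPM in mock cells, 30.6, 35 and 34.2 in full-length libraries and 30, 34.4 and 35.1 in 16-nt libraries. Replicates 2 and 3 of each gRNA group lay above all mock libraries and replicate 1 of each lay below mock replicate 1. The log2 fold change of ESPL1 was 0.19 ± 0.09 with each gRNA and 0.19 ± 0.08 with both against mock, an unadjusted p of 0.0271 that became 0.885 after Benjamini-Hochberg adjustment in edgeR's quasi-likelihood test. It was 0.16 both without the replicate 3 libraries and with the GC offset. CDC20, the activator of the anaphase-promoting complex, stood at 158, 154 and 133 CPM in mock cells, 165, 160 and 133 in full-length libraries and 139, 141 and 138 in 16-nt libraries. Its 16-nt libraries were nearly equal and lay inside the spread of both other groups, and the log2 fold changes of 0.04 and -0.09 became 0.13 and -0.08 without the replicate 3 libraries. PTTG1, securin, which holds separase inactive, ran from 80.6 to 98.5 CPM, with log2 fold changes of 0.00 ± 0.10 and -0.03 ± 0.10 against mock, which became 0.09 and 0.00.

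Of the 3 midzone and cytokinesis genes, ANLN and ECT2 were below 0 with each gRNA and PRC1 had 0.09 ± 0.11 and -0.01 ± 0.11. ANLN, anillin, the scaffold of the contractile ring, stood at 68, 60.3 and 64 CPM in mock cells, 61.2, 59.8 and 47.3 in full-length libraries and 61.5, 63.6 and 52.8 in 16-nt libraries. Replicate 3 of each gRNA group was the low one, and the log2 fold change of -0.19 ± 0.10 with the full-length gRNA became -0.08 without them, and that of -0.11 with the 16-nt gRNA became -0.03. ECT2, the exchange factor that activates RhoA at the division plane, stood at 41.2, 40.1 and 50.1 CPM in mock cells, 41, 43.4 and 35.9 in full-length libraries and 39.4, 42.7 and 38.7 in 16-nt libraries. Here a high value in mock replicate 3 raised the mock mean, and the log2 fold changes were -0.13 ± 0.10 and -0.12 ± 0.10, or -0.05 and -0.09 without the replicate 3 libraries of the gRNA groups. PRC1, with most of its exons shared with other genes, ran from 12.7 to 16.3 CPM.

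TOP2A, the topoisomerase that untangles sister chromatids, and MKI67, the Ki-67 protein that coats mitotic chromosomes and is used to count cycling cells, differed in sign. TOP2A stood at 302, 267 and 288 CPM in mock cells, 292, 264 and 230 in full-length libraries and 282, 273 and 243 in 16-nt libraries. MKI67 stood at 238, 250 and 247 CPM in mock cells, 266, 288 and 226 in full-length libraries and 254, 271 and 249 in 16-nt libraries. For MKI67 the 2 highest values came from replicate 2 of the gRNA groups and the lowest from full-length replicate 3. The log2 fold changes were -0.13 ± 0.10 and -0.10 ± 0.10 for TOP2A, and 0.09 ± 0.09 and 0.08 ± 0.09 for MKI67, with the full-length and the 16-nt gRNA in turn. TOP2A moved to -0.04 with each gRNA without the replicate 3 libraries, and MKI67 to 0.18 and 0.10.

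Genes that work with these 34 also gave no call. Of 125 further genes in 8 lists, 122 were tested and 0 passed the test in any comparison, beside 0.00657% of all genes. With the full-length gRNA 40 were above 0 and 82 below, and with the 16-nt gRNA 43 and 79. The splits without the replicate 3 libraries were 55 and 67, and 47 and 75. Cohesin and condensin genes leaned furthest, with 13 of 15 below 0 with the full-length gRNA and 12 of 15 with the 16-nt gRNA (medians -0.11 and -0.10), and 11 of 15 with each without the replicate 3 libraries (medians -0.03). In that list SMC3, a core cohesin subunit, had a log2 fold change of -0.22 ± 0.10 with the full-length gRNA, against -0.11 ± 0.10 with the 16-nt gRNA, and ESCO2, a cohesin acetyltransferase, -0.21 ± 0.13 and -0.19 ± 0.13. The values of SMC3 became -0.13 and -0.03 and those of ESCO2 -0.15 and -0.11. Of 17 genes of the anaphase-promoting complex and its activators, 10 were below 0 with each gRNA, or 9 and 11 without the replicate 3 libraries. ANAPC2, its cullin subunit, had 0.23 ± 0.10 and 0.25 ± 0.10, and ANAPC1, its largest scaffold, -0.10 ± 0.08 and -0.13 ± 0.08, the first of which became -0.03. For ANAPC2 with both gRNAs the unadjusted p was 0.012 and the adjusted p 0.885 in edgeR's quasi-likelihood test.

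Among 14 regulators of G2/M transcription, 9 were below 0 in full-length libraries and 10 in 16-nt libraries. LIN54, the MuvB subunit that reads the CHR, had a log2 fold change of -0.17 ± 0.12 and -0.19 ± 0.12, and E2F4, the main E2F of the DREAM complex, 0.14 ± 0.09 and 0.11 ± 0.09. Of 28 checkpoint and kinetochore partners 19 and 18 were below 0, with SKA2, which couples kinetochores to microtubules, at -0.18 ± 0.10 and -0.12 ± 0.10, and CENPT, a link between centromere and NDC80, at 0.15 ± 0.10 and 0.16 ± 0.10. Of 20 spindle and motor partners 13 and 14 were below 0, with the motor KIF20B at -0.19 ± 0.10 and -0.12 ± 0.10 and CKAP2, a microtubule-binding protein, at -0.18 ± 0.10 and -0.12 ± 0.10. In each of these pairs the first value is for the full-length and the second for the 16-nt gRNA, both against mock. Without the replicate 3 libraries the counts below 0 were 7 and 8 of the 14 regulators, 16 and 19 of the 28 partners and 11 and 13 of the 20. There the full-length estimates were -0.02 for LIN54, 0.07 for E2F4, 0.05 for CENPT, -0.10 for KIF20B and -0.07 for CKAP2, and the 16-nt estimates 0.07 for E2F4, 0.10 for CENPT, -0.07 for SKA2 and -0.08 for KIF20B.

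Control of CDK1 and PLK1 gave 9 of 14 tested genes below 0 with the full-length gRNA and 6 of 14 with the 16-nt gRNA, or 5 of 14 with each without the replicate 3 libraries. In this list CDCA3, an adaptor for degradation of the kinase WEE1, had a log2 fold change of 0.25 ± 0.13 and 0.22 ± 0.13, and CKS2, a small CDK-binding protein, 0.22 ± 0.13 and 0.11 ± 0.13, the second of which turned to -0.04. Of 9 passenger, midzone and abscission partners 7 were below 0 with each gRNA, or 3 and 6 without the replicate 3 libraries, with RACGAP1, the centralspindlin subunit, at -0.11 ± 0.07 and -0.08 ± 0.07, and the midbody kinase CIT at 0.07 ± 0.09 and 0.14 ± 0.09, which became 0.03 and 0.12 for CIT. Of 7 CDK inhibitor genes, CDKN2A and CDKN2B had 0 counts in all 9 libraries, and of the 5 tested CDKN1B had 0.03 ± 0.09 and 0.06 ± 0.09 and CDKN1A, p21, 0.01 ± 0.13 and -0.14 ± 0.13. Without the replicate 3 libraries CDKN1B had -0.05 and 0.02 and CDKN1A -0.02 and -0.25. The 28 G1/S and replication genes, taken for comparison, had a median of -0.06 with the full-length gRNA with 21 below 0, or -0.02 with 16 below 0 without the replicate 3 libraries. Of these, CCNE2, a cyclin of S phase entry, had -0.22 ± 0.16 and -0.36 ± 0.16, the first of which became -0.05, and POLA1, the catalytic subunit of DNA polymerase alpha, -0.16 ± 0.08 and -0.09 ± 0.08.

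**Figure D3:**
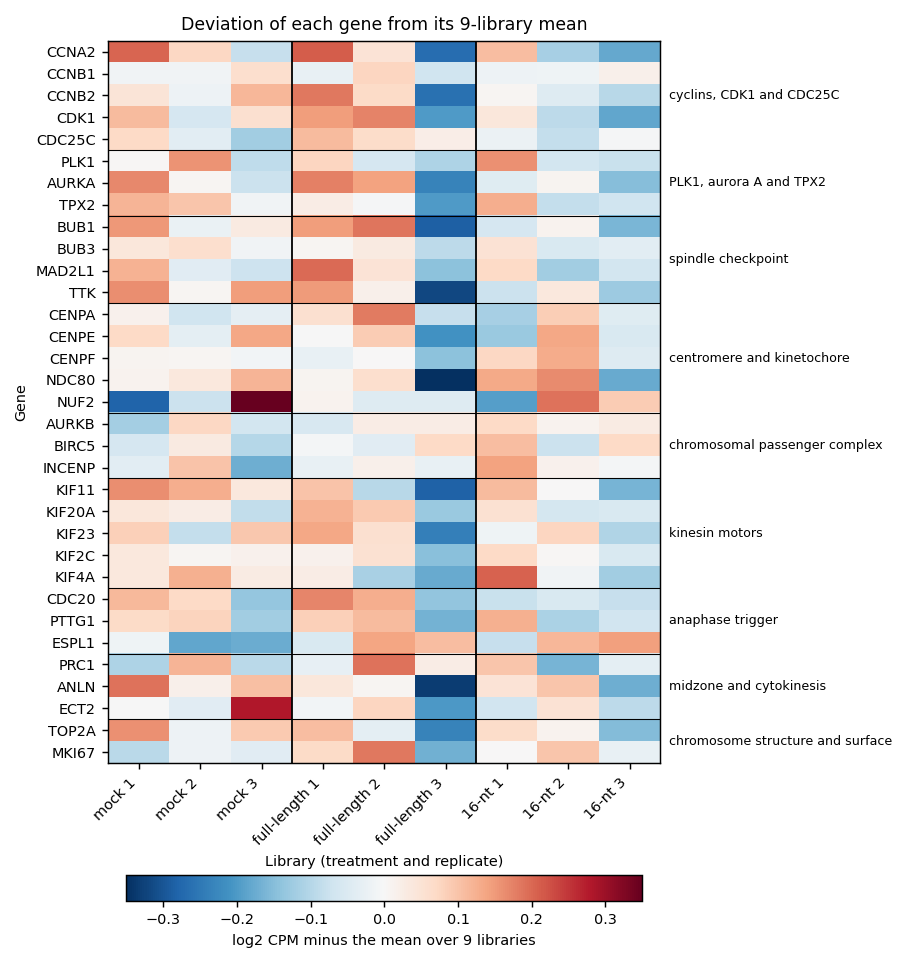
Deviation of log2 CPM from the mean of the 9 libraries (colour scale) for the 33 tested mitosis and spindle genes (rows, by role) in each library (columns). Full-length replicate 3 is below 0 in 28 of 33 rows, INCENP just so, while AURKB, BIRC5, ESPL1, CDC25C and PRC1 lie above 0 there.

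These genes differed more between single libraries than between group means. In full-length replicate 3 25 of the 33 had their lowest value, beside 18.4% of all tested genes, and 26 lay below each mock library, beside 29.6%. In 15 of the 33 replicate 3 of both gRNA groups gave the lowest 2 of the 9, beside 13.2%. The median deviation from the 9-library mean was -0.17 in full-length replicate 3 and -0.07 in 16-nt replicate 3, and between -0.01 and 0.06 in the other 7. It was near -0.20 for cyclins, spindle checkpoint genes and the aurora A group and -0.18 for the kinesins. For the 3 passenger complex genes among the 33 it was 0.03. The G1/S and replication genes had -0.11 and the 122 further mitosis genes -0.10 in full-length replicate 3, against 0.00 over all tested genes.

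Same-numbered gRNA libraries deviated together over all genes, so the gRNAs were also set side by side within a number. Some mock and 16-nt libraries of unlike number deviated together as strongly, so what a number shares is not settled. In the pair numbered 3, 31 of the 33 were higher with the 16-nt gRNA, beside 52.2% of all tested genes. In the pair numbered 1 the count was 15 of 33 (49.7%) and in the pair numbered 2 it was 10 of 33 (50.5%). The pairs thus differed among themselves, and the gRNA comparison with replicate number as a block called 0 of the 33. Without the replicate 3 libraries, the full-length libraries lay above all mock libraries for CDC20, CDK1, CENPA, KIF20A, MKI67 and PTTG1, 6 of 33 beside 6.4% of all tested genes, and below for KIF4A (6.84%). For the 16-nt gRNA CENPF, MKI67 and NDC80 lay above (6.15% of all tested genes) and CCNB1 below (7.36%). The replicate 3 libraries were left out because full-length replicate 3 was low for these same genes. That choice favours counts above mock, which are therefore not comparable with the shares of all tested genes.

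**Figure D4:**
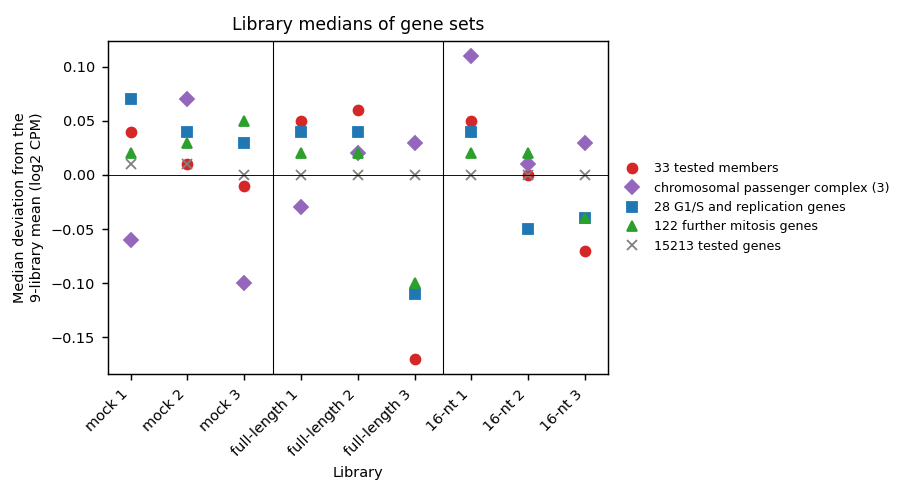
Median deviation of log2 CPM from the 9-library mean in each library, for the 33 tested mitosis and spindle genes, the 3 passenger complex genes among them, 28 G1/S and replication genes, 122 further mitosis genes and all 15213 tested genes. Full-length replicate 3 has the lowest value for the mitosis genes, -0.17, with the G1/S genes at -0.11 and the passenger complex at 0.03.

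Transcript GC content moved with this difference. Over the 33 genes the correlation of GC content with the deviation in full-length replicate 3 was 0.60, and over 7938 genes at least as abundant it was 0.58, as a description across genes, which are not independent. In mock replicate 3 the values were -0.72 and -0.69. The mitosis genes are poorer in GC than genes of their level, with a median of 44.3% against 48.8%, and run from CENPE at 35.3% to INCENP at 59.6%. Among genes of that level the median deviation in full-length replicate 3 went from -0.16 in the GC-poorest of 5 equal bins to 0.07 in the richest. In the poorest bin 57.2% of genes had their lowest value in that library and in the richest 1.39%. Set against the median of their own GC bin, the mitosis genes still had a median deviation of -0.10 there, and 23 of 33 lay below. With the GC offset all 5 genes of the group of cyclins, CDK1 and CDC25C and 4 of the 5 centromere and kinetochore genes were above 0 with the full-length gRNA, against 2 and 1 without it. Of the 33, 0 passed the test with the offset, and the medians against mock were 0.02 with the full-length and 0.01 with the 16-nt gRNA.

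Over the 9 libraries the mitosis genes varied together more than most genes. The median pairwise correlation of log2 CPM was 0.40 over 528 pairs, with 41.9% of pairs above 0.5, against a median of 0.03 and 19.4% over all pairs of 8248 genes of their level. Between them and the 28 G1/S genes it was 0.30, and within the G1/S genes 0.21. These are descriptions over 9 libraries that share treatment, number and GC trend. Each gene was also set against the mean of the other 32. KIF2C (0.93), BUB1 (0.92), AURKA (0.89) and CCNB2 (0.89) followed it most closely, and BIRC5 (-0.46), ESPL1 (-0.44), AURKB (-0.31) and NUF2 (-0.25) ran against it. NDC80, the partner of NUF2, had 0.80. Of the 4 that ran against it, BIRC5, AURKB and ESPL1 are richer in GC than the median of these genes, at 52.2%, 55.6% and 57%, and NUF2 is poorer at 38.8%. PLK1 (57.3% GC), CDC20 (57.9%) and INCENP (59.6%) are richer still and did not run against it, with 0.47, 0.69 and 0.10.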

How the data were processed

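RNA sequencing of 9 K-562 libraries was analysed, 3 per group, grouped and numbered by their titles. RNA was extracted with RNeasy kits and libraries were made with NEBNext Ultra RNA reagents, per the labels' protocols. The authors deposited raw read counts per gene and an exon length per gene. The submitters' processing notes name STAR 2.7.6a, featureCounts with Subread 2.0.1, Trim Galore 0.6.6 and build GRCh38. The annotation release and the treatment of strand and of multi-mapped reads are not given in the sources at hand, so genes with overlapping exons are uncertain. The table held 0 sample columns without a label.

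Counts were tested in 1 fit of all 9 libraries with edgeR 4.0.16 in R 4.3.3 (two-sided quasi-likelihood F test, TMM scaling, filterByExpr with minimum count 10, Benjamini-Hochberg over 15213 genes, called under an adjusted p of 0.05). The further comparison of both gRNAs with mock recoded the groups. CPM values used TMM-scaled library sizes, and log2 CPM a prior count of 2. Levels between genes were divided by the deposited exon length in kilobases. DESeq2 1.42.0 was an alternative. For B2M an exact permutation test was run in scipy 1.17.1. The fit was tested on simulated counts. GC content was that of the longest protein-coding transcript in the reference annotation. Promoter sequences are RefSeq entries (GRCh38.p14) matched by symbol, with only the first listed entry kept for each symbol.

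Whether replicate numbers pair libraries was checked by correlating deviations from group means over 11671 genes. Same-numbered full-length and 16-nt libraries correlated at 0.46, 0.28 and 0.68, and unlike-numbered ones at 0.08 or less. For mock with full-length the same-numbered values were 0.37, 0.03 and 0.19, and for mock with 16-nt 0.16, -0.45 and 0.25. Unlike-numbered mock and full-length libraries ran from -0.33 to 0.08, a range that includes the same-numbered 0.03. Whether the numbers pair mock with the full-length group is thus not settled. They do not pair mock with the 16-nt group. Mock replicate 2 with 16-nt replicate 1 reached 0.46 and mock replicate 3 with 16-nt replicate 2 reached 0.42. Both exceed the 0.28 of the gRNA libraries numbered 2, so what a number shares is not settled.

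Signs and medians of each list were also computed without the replicate 3 libraries of both gRNA groups, with other scalings and with the GC offset, over genes tested with all 9 libraries. The 34 genes and the other lists were chosen with earlier results of these data known. Named genes are the 34, B2M, and from each further list the 2 tested genes with the smallest p for both gRNAs against mock. CDCA8 was added as a further subunit of the passenger complex. SDs are over 3 libraries, and counting error is small beside them except for UBE2C.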

Additional observations from a re-analysis of the deposited data

How the results depend on the processing

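Over all settings run, 0 mitosis genes were called in any comparison. Of 2409 fold changes of single mitosis genes under these settings, 2401 moved by less than the spread between single replicate libraries. The other 8 moved by more, all with the GC offset (CCNB1, BUB3 and CENPF). Leaving out 1 library of a group of 3 could hardly move an estimate past that spread. The 2401 therefore do not measure how steady the estimates were. Without the replicate 3 libraries of both gRNA groups, full-length estimates against mock went from -0.14 to -0.02 for TTK and from -0.02 to 0.11 for BUB1. The smallest adjusted p was 0.49 (KIF11, both gRNAs against mock, edgeR with the replicate block). The median over the mitosis genes ranged from -0.07 to 0.02 for full-length gRNA against mock, from -0.08 to 0.01 for 16-nt gRNA against mock, from -0.06 to 0.03 between the gRNAs and from -0.06 to 0.03 for both against mock. Without the filter on low counts the number of genes called was 6 for full-length gRNA against mock, 13 for 16-nt gRNA against mock, 4 between the gRNAs and 30 for both against mock, with 0 mitosis genes among them. With only the groups compared in the fit, 0 genes were called between the gRNAs, where B2M had a log2 difference of 0.99 and an adjusted p of 0.13 in edgeR. Leaving out each library in turn, that count ranged from 0 to 1, and it was 0 without full-length gRNA replicate 2, where B2M had 0.95 and an adjusted p of 0.123. The replicate block changed no call. With only the gRNA groups in a paired fit, an alternative chosen after the data were seen, as were the GC offsets, 1 gene and 0 mitosis genes were called and the smallest adjusted p of a mitosis gene was 0.973. With 3 libraries a group, differences within the printed intervals were not detectable, and UBE2C was too shallow to test.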
